A study of Homo sapiens with 4 samples.

Results

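The proteasome genes of T47D cells were followed at the level of RNA and of progesterone receptor (PR) binding. Every gene symbol of the RNA-seq files that consists of PSM, a letter from A to G and a digit was taken, which gave 49 of 23287 symbols. Of these, 48 encode subunits, activators, an inhibitor or assembly chaperones of the proteasome. The remaining one, PSMC3IP, is a recombination protein that matches by its symbol and is not counted as part of the proteasome. It is listed here and left out of the sums by part. T47D is an established human breast cancer cell line that expresses PR, and R5020 is a synthetic progestin that activates this receptor. Cells were treated for 3 h with 10 nM R5020 or with the vehicle ethanol (EtOH), and 1 RNA-seq library was made from each condition. PR binding sites came from 1 ChIP-seq library of cells treated with 10 nM R5020 for 1 h, called against input DNA that was not analysed here. Both conditions used the same line in charcoal-stripped serum, without any genetic change. The cells for ChIP-seq were kept in such serum for longer before harvest than those for RNA-seq. With 1 library per condition there was no estimate of the spread between cultures, so no p-value is given and each difference compares these libraries only.

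The proteasome is the protease that degrades most ubiquitin-tagged proteins of the cell. Its barrel-shaped core has outer alpha rings that gate the entrance and inner beta rings that hold the proteolytic sites, and regulatory particles or activators dock on its ends to recognise, unfold and feed substrates. After interferon, immuno-subunits take the places of the constitutive catalytic subunits, and dedicated chaperones assemble core and base. The PR is a nuclear receptor that binds DNA at inverted repeats of a short hexamer, and the proteasome also degrades the PR itself.

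Of the 15 PR binding sites that lay within 10 kb of a proteasome gene, 2 held the complete inverted repeat searched for, ACANNNTGT (N is any base) with a G before it and a C after it at a distance of 1 further base. They are shown because no other of the 15 sites held this element, which has the same form on both strands. Both lay in introns of neighbouring genes, and each is printed as 101 bases of the plus strand of GRCh37 (hg19) with the repeat in capitals. The site near PSMB10, in PSKH1, is shown over chr16:67960491-67960591, and the site near PSMC5, in SMARCD2, over chr17:61916036-61916136.
PSMB10 site: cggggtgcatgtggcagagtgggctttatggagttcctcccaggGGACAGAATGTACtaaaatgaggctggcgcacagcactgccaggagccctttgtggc
PSMC5 distal site: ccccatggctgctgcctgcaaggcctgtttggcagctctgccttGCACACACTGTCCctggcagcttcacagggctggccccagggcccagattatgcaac

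The PR sites that reached the start of a proteasome gene did not hold this repeat. Such sites covered 3 deposited starts, those of PSMB2, PSMC5 and PSMD9. The stretch upstream of PSMD9 (chr12:122326372-122326645) is shown because its site alone among them held a single receptor hexamer. It also had the lowest score of them, and the sites at PSMB2 and PSMC5 held no hexamer. The stretch is the plus strand of hg19, and capitals mark the receptor hexamer TGTTCT, which was searched together with its complement AGAACA. PSMD9 runs on the plus strand, so the gene begins to the right of the stretch.
PSMD9 upstream: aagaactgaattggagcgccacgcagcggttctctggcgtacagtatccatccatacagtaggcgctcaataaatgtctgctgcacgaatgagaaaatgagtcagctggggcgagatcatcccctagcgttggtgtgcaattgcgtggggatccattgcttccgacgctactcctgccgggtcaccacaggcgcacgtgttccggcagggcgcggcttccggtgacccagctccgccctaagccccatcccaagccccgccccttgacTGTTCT

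RNA levels are given as FPKM, the fragments assigned to a transcript scaled by its length and by the library total, summed over the transcripts of a gene. The scaling by length allows levels of different genes to be compared only roughly, since for many transcripts the FPKM lay outside the interval deposited with it, and ranks below hold on the FPKM scale unless stated. Coverage, transcript length and reads of 50 nt gave totals of 35151493 reads for EtOH and 36203604 reads for R5020 over the listed transcripts. These totals are not the sequencing depth, since the authors report more unique reads, with the larger number in EtOH. The members took 0.416% of these totals in EtOH and 0.404% in R5020. The order of these shares depends on the totals used. Among markers of the line, PGR was at 23.7 FPKM with EtOH and 15.3 with R5020, and ESR1 at 17.2 and 10.9. The keratins KRT8 and KRT18 were listed at 0 in EtOH, and at 285 and 174 in R5020, although every luminal cell makes them, so an exact 0 in these files is not read as absence. PTPRC, CD3E and CD14 of blood cells were at or below 0.0613 in both libraries, and of the markers of other cells only the fibroblast gene COL1A1 reached 1, with 5.12 in EtOH and 3.31 in R5020, while COL1A2 was listed at 0. The known progestin target FKBP5 rose from 15.9 to 86.6 and TSC22D3 from 3.52 to 18.7, while PER1 had 0.856 and 1.57. In bulk RNA, fewer cells of a kind and less RNA per cell cannot be told apart.

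Progestin treatment for 3 h left the proteasome genes close to their EtOH levels. A gene was retained when its FPKM was at least 1 in at least 1 library, and change is given as the log2 ratio of R5020 to EtOH after adding 1 to each FPKM, which understates the change of low genes. Of the 49 genes 46 were retained, 45 of them at an FPKM of at least 1 in both libraries, while PSMB10 passed through R5020 alone. Only PSME4 was at least 1.5-fold higher in R5020, 1 of 46, where 7.67% of the 11018 retained genes of the libraries were. None of the 46 was at least 1.5-fold lower, where 4.14% of all retained genes were. Most members were well expressed, and among all genes with a mean FPKM of 5 to 100 the shares were 8.6% and 3.59%, against 1 and 0 of 41 members in that range. The median log2 change was 0.00 over the members and 0.01 over all retained genes. Without regard to direction, the median size of the log2 change was 0.11 over the members and 0.18 over all retained genes. The signs were evenly split, 23 above 0, PSMC3IP among them, and 23 below. With the limit lowered from 0.58 to 0.32 on the log2 scale, 4 members were higher and 3 lower, with 15.5% and 12.6% of all retained genes. The 4 higher ones were PSME4, PSMD5, PSMC3IP and PSMB10. Of these, PSMC3IP is not counted as part of the proteasome and PSMB10 passed the filter through R5020 alone. The order of the members by FPKM was nearly the same in both libraries (Spearman's rho 0.978 over 46 genes, which share the libraries and are not replicates).

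**Figure D1:**
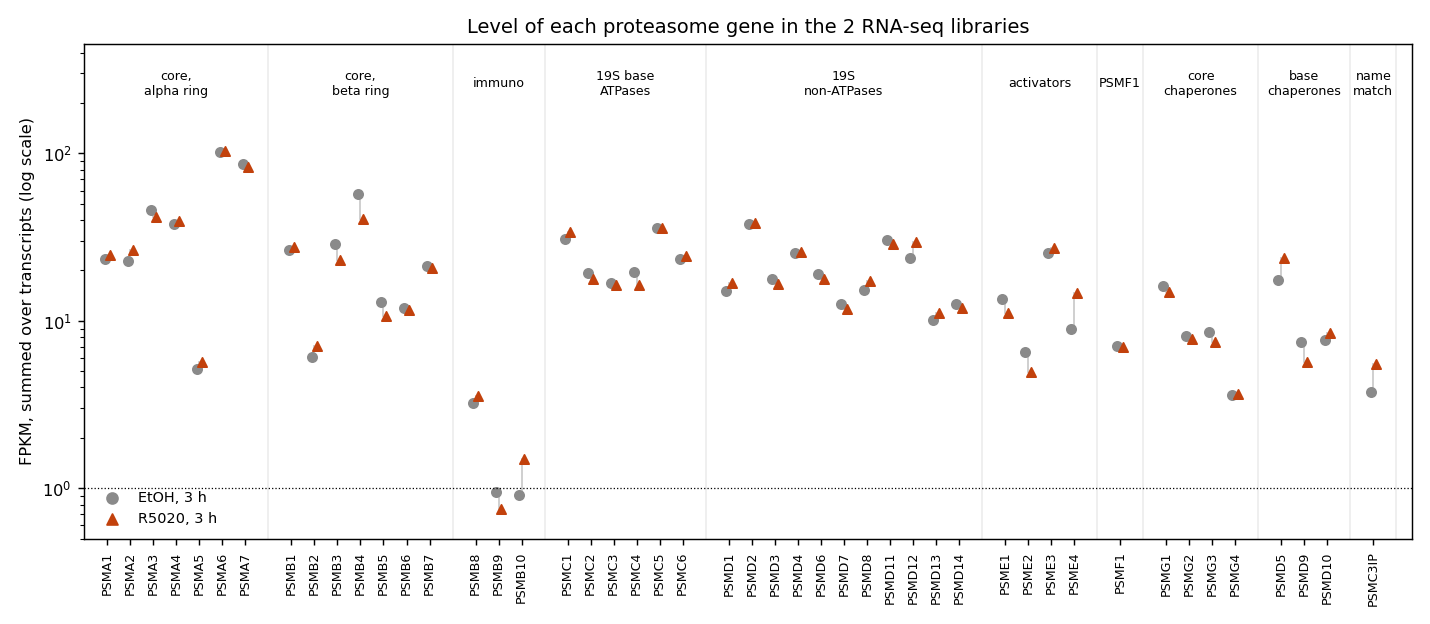
FPKM of each proteasome gene with a value above 0 (log scale), with grey circles for the EtOH library and orange triangles for the R5020 library, grouped by the role of the protein. Symbols lie close together for most genes, PSMA6 and PSMA7 stand highest, and the immuno-subunits lie lowest. Of these, PSMB9 and PSMB10 lie around the dotted line at an FPKM of 1, and PSMB8 lies above it.

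The alpha ring of the core kept its summed level, 324.0 FPKM in EtOH and 323.7 in R5020. PSMA6, an alpha subunit, had the highest level of all members, with 102.5 in EtOH and 102.8 in R5020. PSMA7, the next by FPKM, had 86.4 and 83.0, but its interval midpoints of 52.8 and 50.7 placed it 4th, below PSMD2 and PSMC1, while PSMA6 was highest on both scales. Levels within the ring were far from equal, although each subunit is present in the same number of copies in the particle. PSMA5 had 5.16 and 5.70, so that by FPKM the highest and the lowest alpha gene were 19.9-fold apart in EtOH and 18.03-fold in R5020. The size of this gap depends on the scale, since the FPKM of PSMA6 lay outside its interval in both libraries. Its interval midpoints were 153.5 and 155.6, and those of PSMA5 were 5.18 and 5.72. The 7 alpha genes lay between -0.14 for PSMA3 and 0.19 for PSMA2 on the log2 scale of change. For PSMA3 the value came from a non-coding transcript, NR_038123, at 7.40 FPKM in EtOH and listed at 0 in R5020, while its coding transcript NM_002788 had 38.6 and 41.7.

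The constitutive beta ring had a lower sum in R5020, 141.5 FPKM against 164.7 in EtOH, a difference of -14.1%. PSMB4, a non-catalytic beta subunit and the third highest member by FPKM in EtOH, made up most of it, with 57.1 in EtOH and 40.5 in R5020. Both values lay outside their intervals, and by interval midpoints PSMB4 had 29.1 and 21.6, ranked 12th of the members in EtOH, and the sum of the ring differed by -9.05%. Its log2 change of -0.49 was the lowest of all members and stayed inside the 1.5-fold limit. PSMB3, another non-catalytic beta subunit, had 28.9 in EtOH and 23.2 in R5020, a log2 change of -0.30. PSMB2, also non-catalytic, had 6.04 and 7.09, a log2 change of 0.20 and the highest of the ring. The 14 constitutive core genes summed to 488.6 FPKM in EtOH and 465.3 in R5020, or -4.79%. Of these 14, 7 lay above 0 and 7 below. Of the alpha genes 5 of 7 lay above 0, and of the beta genes 5 of 7 lay below.

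The catalytic subunits were predominantly of the constitutive kind in both libraries. PSMB5, which carries the chymotrypsin-like activity, was at 12.9 FPKM in EtOH and 10.6 in R5020. PSMB6, with the caspase-like activity, had 11.98 and 11.6, and PSMB7, with the trypsin-like activity, had 21.4 and 20.8. The log2 changes were -0.25 for PSMB5, -0.04 for PSMB6 and -0.04 for PSMB7, and that of PSMB7 was 0.03 with interval midpoints. PSMB8, the immuno-subunit that replaces PSMB5, had 3.25 in EtOH and 3.57 in R5020. PSMB9, which replaces PSMB6, stayed below 1 with 0.953 and 0.757 and was not retained. PSMB10, which replaces PSMB7, had 0.907 and 1.4998, a log2 change of 0.39 that corresponded to only 78 and 119 reads. Its FPKM lay outside its deposited interval in both libraries, and with the midpoints of the interval, 0.455 and 0.692, it stayed below 1 and its log2 change was 0.22. The immuno-subunits therefore summed to 5.11 FPKM in EtOH and 5.83 in R5020. They formed 9.96% of the catalytic FPKM in EtOH and 11.9% in R5020. By pair, PSMB8 took 20.2% and 25.1%, PSMB9 took 7.37% and 6.12%, and PSMB10 took 4.07% and 6.73%, or 2.09% and 3.07% with interval midpoints. PSMB8 and PSMB10 thus had a larger share in R5020 and PSMB9 a smaller one, on few reads for PSMB9 and PSMB10. The forms of testis and thymus, PSMA8 and PSMB11, were listed at 0 in both libraries.

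**Figure D2:**
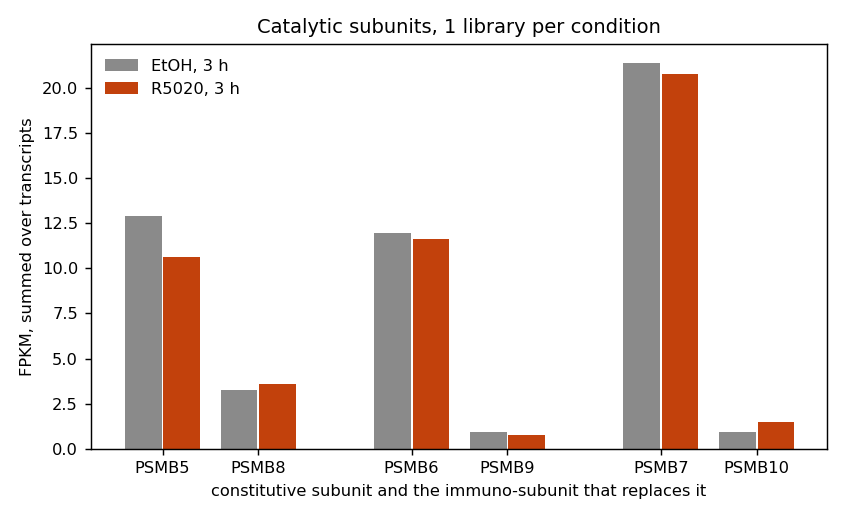
FPKM of the constitutive catalytic subunits PSMB5, PSMB6 and PSMB7, each beside the immuno-subunit that can replace it, in the EtOH (grey) and R5020 (orange) libraries, with 1 library per bar and hence no error bars. Each immuno-subunit lies below its partner in both libraries, from 3.57 for PSMB8 down to 0.757 for PSMB9 in R5020.

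The regulatory particle had nearly the same sum in both libraries, 366.0 FPKM in EtOH and 370.3 in R5020 over 17 genes. The 6 ATPases of its base, which unfold substrates, summed to 145.8 and 144.4, with 2.12-fold between the highest and lowest gene in EtOH. PSMC5 had 35.7 in both libraries, and PSMC4, with 19.7 and 16.3, had the lowest log2 change of the ATPases, -0.25. The difference in PSMC4 lay in its transcript NM_153001, with 8.76 in EtOH and 5.16 in R5020, while NM_006503 had 10.9 and 11.2. Among the 11 non-ATPases, PSMD2, a scaffold that docks ubiquitin receptors, was highest with 37.9 in EtOH and 38.3 in R5020. PSMD12, a lid subunit, had 23.9 and 29.7, a log2 change of 0.31 and the highest of the particle. PSMD11, another lid subunit, had 30.5 and 28.9. Of the 17 genes 8 lay above 0 and 9 below, none past 1.5-fold.

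The activators were the most divided group. PSME4 encodes PA200, a large nuclear activator that opens the core without ubiquitin, and its level rose from 8.93 FPKM to 14.7 with R5020. This was a log2 change of 0.66, and 0.72 without the pseudocount, with a 95% interval of 0.67 to 0.76 from exact binomial counting of 6133 and 9711 reads. Such intervals cover counting error only, count mates of a pair as if independent and say nothing of the spread between cultures. PSME1 and PSME2, which together form the interferon-inducible PA28 ring of the cytoplasm, lay on the other side. PSME1 had 13.6 in EtOH and 11.1 in R5020, and PSME2 had 6.47 and 4.95. Their log2 changes were -0.27 and -0.33, and their sum was 20.1 in EtOH and 16.04 in R5020, or -20.0%. PSME3, the nuclear PA28 gamma, was the most abundant activator with 25.3 and 27.1, a log2 change of 0.10. PSMF1, the inhibitor PI31, had 7.08 and 7.03. The 4 activators summed to 54.3 in EtOH and 57.9 in R5020, since the difference in PSME4 exceeded those in PSME1 and PSME2.

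The assembly chaperones also contained both directions. PSMD5, which holds ATPases during assembly of the base, was at 17.6 FPKM in EtOH and 23.7 in R5020, which is 0.41 on the log2 scale of change. PSMD9, a base chaperone as well, had 7.46 and 5.64, a log2 change of -0.35. PSMD10, or gankyrin, had 7.71 and 8.48. The 3 base chaperones thus summed to 32.8 in EtOH and 37.9 in R5020, with PSMD5 and PSMD9 on opposite sides. The core chaperones PSMG1 to PSMG4 summed to 36.6 and 33.9, and their log2 changes ran from -0.17 for PSMG3 to 0.01 for PSMG4. PSMG3 had 8.57 in EtOH and 7.52 in R5020, and PSMG4 had 3.61 and 3.66. Outside the complex, PSMC3IP had 3.76 and 5.56, a log2 change of 0.46. The difference lay in NM_001256014, which was listed at 0 in EtOH and had 2.66 in R5020, while NM_016556 had 3.76 and 2.89, and with an exact 0 a switch between transcripts cannot be told from a failed estimate.

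**Figure D3:**
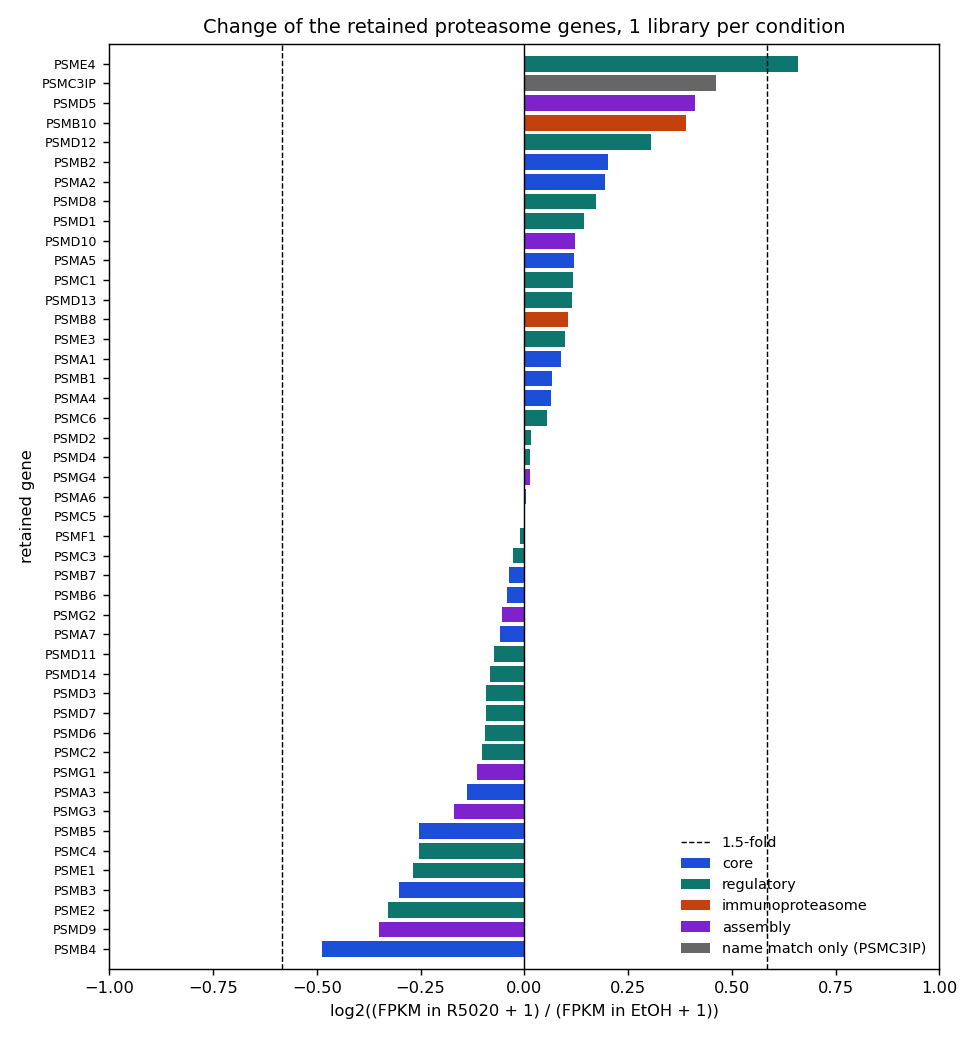
Log2 change in R5020 over EtOH, with a pseudocount of 1, for the 46 retained genes in order, with bars coloured by part and dashed lines at 1.5-fold. PSME4 at 0.66 is the only bar past a line, and PSMB4 at -0.49 is the lowest.

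The intervals that Cufflinks deposited with each FPKM limit how these levels can be read. Of the 50 member transcripts that reached 1 FPKM in both libraries, 22 had a value outside their own interval, the same 22 in both libraries. For PSME4 the midpoint of the interval was 13.03 in EtOH and 21.0 in R5020, so the level was higher on that scale and the log2 change of 0.65 nearly the same. The 109 transcripts of the members included 21 on alternative haplotypes of chromosome 6, all listed at 0, and 32 more on primary chromosomes at 0 in both libraries. Only 7 genes had 2 or more transcripts that reached 1 FPKM in a library. Named pseudogenes, 44 in all, exist for 17 members, none of them is listed by name in the RNA files, and reads with several positions were discarded by the authors. The part of that step in the levels of PSMA6 and the other members with pseudogenes was not tested. Nor was its part in the levels of PSMB8 and PSMB9, to which all 21 haplotype transcripts belong.

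Genes that work with the proteasome were read from a list of 40, of which 37 were retained. In this list 1 was at least 1.5-fold higher and 1 lower, beside the 7.67% and 4.14% of all retained genes, and the lower one rests on an exact 0. UBE3C, a ubiquitin ligase that extends ubiquitin chains at the proteasome, rose from 12.5 FPKM to 26.7 with R5020. ERAP1, a peptidase that trims antigen peptides, had 4.48 in EtOH and was listed at 0 in R5020, so no fold is given. The subunits that do not carry the PSM name stayed inside 1.5-fold. ADRM1, a ubiquitin receptor, had 13.7 and 15.5, and SHFM1, the small lid subunit, had 79.6 and 60.0, a log2 change of -0.40. POMP, which matures the core, had 20.9 and 22.7. The transcription factor NFE2L1, which controls proteasome genes when the protease is inhibited, had 32.0 in EtOH and 28.7 in R5020. The ubiquitin gene UBB had 41.0 and 30.2, inside 1.5-fold.

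Of the 11181 PR binding sites, 15 lay within 10 kb of 11 proteasome genes, which is 22.4% of the 49. Among all gene symbols with a position 27.4% had a site that near, and among the retained genes 33%. A site overlapped 4 members, 8.16%, against 17.9% of all symbols and 22.5% of retained genes. A longer gene is more likely to overlap a site, and the shares were not matched for gene length. Within 50 kb there were 22 members, 44.9%, against 45.6% and 52.7%. For sites with a score of at least 100 the count was 4 members, 8.16%, against 6.88% and 9.2%. The share of members was below both shares at 10 kb and for overlap and closer to them at 50 kb, and these differences were not tested. The score of a site is -log10 of the MACS p-value multiplied by 10. The 15 sites had a median score of 68.3, against 74.5 for all sites, and 9 of the 15 lay below the latter.

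The highest score near a member, 178.2, belonged to the site over the start of PSMB2, which ranked 289th of all sites. PSMB2 had a log2 change of 0.20. Start sites of PSMC5 (chr17:61904838-61905333) and PSMD9 (chr12:122326372-122326777) were also covered, with scores of 65.3 and 53.6, where the lowest deposited score is 50. Their log2 changes were 0.00 and -0.35, so the 3 genes with a PR site at a deposited start lay on either side of 0. PSMC5 had another site 6.54 kb away with a score of 162.1, the one with the complete repeat printed above. The site over the inhibitor gene PSMF1 lay in an intron (chr20:1135891-1136329) with a score of 83.3, 36.9 kb from the nearest start of PSMF1. Those 4 were the members that overlapped a site.

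The other members with a site had it outside the gene, often in a neighbour. PSMA7 had sites of 133.2 in an intron of LSM14B and of 63.5 in SS18L1, at gaps of 3.10 and 3.68 kb. PSMD2 had a site of 125.2 in EIF4G1 and one of 52.2 in ECE2. The site of PSMB10, with a score of 85.0, lay 7.58 kb away in PSKH1. PSME3 and PSMG4 had sites of 57.0 and 54.3 upstream of the deposited gene, in the longer gene models of GENCODE. The midpoint of the PSME3 site lay 17 bases from the start of PSME3 in GENCODE, and also within BECN1. PSMD11 had a site of 58.6 beyond its end, and PSMG3 had sites of 68.3 and 69.6 in TMEM184A. Over all 15 sites, 6 had the member's start as the nearest protein-coding start. PSME4, the only member past 1.5-fold, had no site within 50 kb, and neither had PSME1 or PSME2. The nearest site of PSMB4 lay 26.8 kb away, that of PSMD12 10.5 kb and that of PSMD5 34.6 kb.

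**Figure D4:**
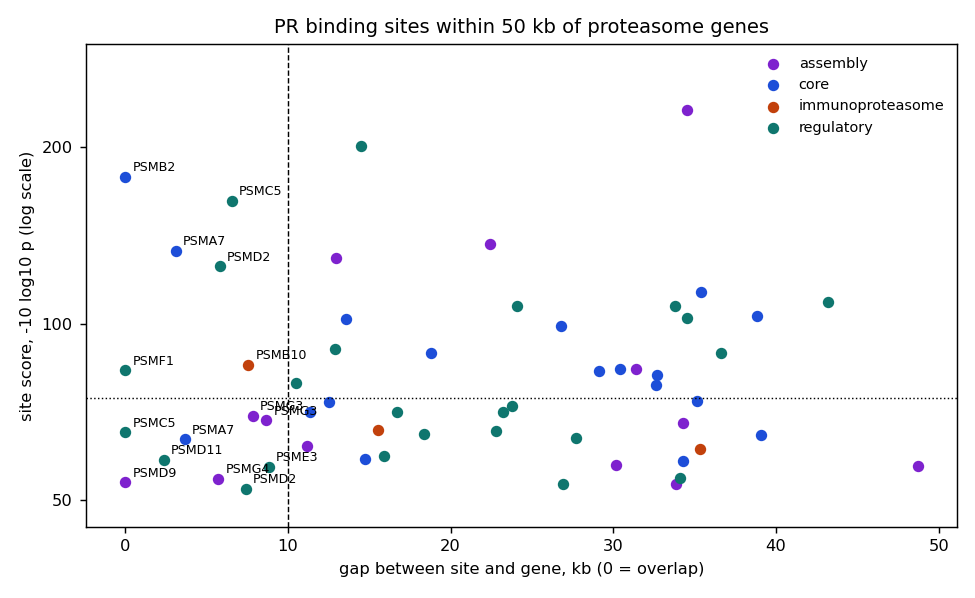
Score of each PR binding site within 50 kb of a proteasome gene (log scale) against the gap between site and gene in kb, where 0 means overlap, coloured by part, with a dashed line at 10 kb and a dotted line at the median score of all sites, 74.5. Names mark the sites within 10 kb, led by the PSMB2 site at 178.2.

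Members with a nearby site lay on both sides of 0, as did those without. The 11 members with a site within 10 kb had a median log2 change of 0.00 and a range of -0.35 to 0.39, with 5 above 0 and 6 below. The upper end is PSMB10, which passed the filter through R5020 alone, and the next highest was PSMB2 with 0.20. The 35 retained members without one had a median of 0.00 and a range of -0.49 to 0.66. Without regard to direction, the median size of the log2 change was 0.07 with a site and 0.11 without, a difference that was not tested. Among all retained genes, a site within 10 kb was present for 44.6% of those at least 1.5-fold higher and for 40.6% of those at least 1.5-fold lower. The complete repeat was found in the central 300 bases of 1.88% of all sites, against 0.439% and 0.492% of windows 5 kb before and after. The hexamer TGTTCT or AGAACA occurred in 6 of the 15 member sites. In the central 300 bases of all sites it occurred in 17.7%, against 18.9% and 19.2% of the windows 5 kb before and after, while member sites were searched over their whole length.

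Proteasome genes are known to share a promoter element, TGACNNNGC, the antioxidant response element bound by NFE2L1 and NFE2L2. RefSeq promoter sequences of GRCh38.p14, from 250 bases before to 50 after the start, matched 43 of the 49 members, and PSMA7, PSMB1, PSMB6, PSMB7, PSMD4 and PSMG3 had no entry. On either strand the element was present in 15 of the 43, 34.9%, against 16.1% of all promoters and 19.5% of those of retained genes, a difference that was not tested. By part it was in 8 of 21 regulatory, 4 of 6 assembly and 2 of 10 core genes. Of these, 6 are shown because they belong to genes at the ends of the order of change, 3 from each end. Each line has 27 bases on the strand where the element reads TGACNNNGC, with the element in capitals, and the opposite strand to the gene is used for PSME4 alone. PSMD9 has a further element on the opposite strand that is not printed.
PSME4: ctctgctggTGACGCTGCagccgccgg
PSMD5: ggctacagtTGACACGGCcctaacgga
PSMD12: gacaaaaccTGACGCTGCaggctggag
PSME2: cctggactgTGACCCAGCcagcaccgc
PSMD9: ggcttccggTGACCCAGCtccgcccta
PSMB3: cctccgtttTGACTTTGCaaccaaact

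The positions are chr2:53971010-53971036 for PSME4, chr9:120843039-120843065 for PSMD5, chr17:67366725-67366751 for PSMD12, chr14:24146768-24146794 for PSME2, chr12:121888679-121888705 for PSMD9 and chr17:38752628-38752654 for PSMB3, all in GRCh38.p14. The element was thus in genes with log2 changes from 0.66 for PSME4 to -0.35 for PSMD9. The 14 retained members with it had a median log2 change of -0.07, and the 26 retained members without it one of 0.03. The complete receptor repeat was found in 0 of the 43 member promoters and in 0.480% of all promoters. A match to these letters describes the sequence and does not show that a factor was bound.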

How the data were processed

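Processed data of 3 libraries of T47D cells were used, the RNA-seq libraries after R5020 and after EtOH and the PR ChIP-seq sites. For RNA-seq the authors trimmed 50-bp paired-end reads, mapped them with TopHat on hg19, dropped reads that mapped to several places, and deposited FPKM per RefSeq transcript from Cufflinks with bounds of an interval, a status and a coverage. Coverage, also deposited, was used here for read totals and counting error alone. For ChIP-seq the submitters' processing notes name Bowtie 1.1.2, and the authors deposited MACS sites with a score of at least 50. FPKM is already scaled by library and length, so no count test was used.

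Transcripts were joined by identifier and summed by symbol. A pseudocount of 1, a filter of FPKM of at least 1 in at least 1 library and a threshold of 1.5-fold were used, the latter as in the study but without its p-value. Counting intervals are exact Clopper-Pearson at 95%. Sites were tied to a gene when their edge lay within 10 kb of the extent of its transcripts, and annotated from GENCODE release 44 (protein-coding genes, GRCh37). The genes named with values were the 5 largest rises and falls, the 3 highest in EtOH, the catalytic subunits, activators and inhibitor, members with a site within 10 kb, members below 1, the pathway genes past 1.5-fold, and ADRM1, SHFM1 and POMP. Others were named after their values were seen, to show ranges or transcripts or as pathway examples. Members and lists were chosen with earlier results of these data known. The calling step was run on simulated data with planted changes past the threshold and little noise. This checks the code and says nothing of the error in these libraries. Conditions came from the labels, doses and times from the methods of the study. Alternatives were pseudocount, filter, threshold, rescaling, highest transcript, status, grouping and site distance or score, and the interval midpoint was added after seeing the data. Python 3.11.15, pandas 2.3.3, numpy 2.4.6, scipy 1.17.1 and matplotlib 3.10.9 were used.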

Additional observations from a re-analysis of the deposited data

How the results depend on the processing

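No paired analysis was possible because each condition has 1 library, and for the same reason no replicate could be left out. The count of members at least 1.5-fold higher was 2 with a pseudocount of 0.1, which adds PSMB10, it was 4 with a log2 limit of 0.32 and 0 with a threshold of 2-fold. It was 1 under the other alternatives tried. The count at least 1.5-fold lower was 3 with a log2 limit of 0.32 and 0 otherwise. The median log2 change of the members was -0.0095 with an FPKM of at least 5, -0.010 after rescaling R5020 by a factor of 1.01, and 0.0069 with the highest transcript of each gene. The log2 ratio of the summed FPKM was -0.07 for the core and -0.026 with interval midpoints. It was 0.03 for the regulatory part, 0.012 with interval midpoints and 0.041 with PSME1 and PSME2 moved to the immunoproteasome. That move turned the immunoproteasome from 0.19 to -0.20, and interval midpoints gave 0.049. For assembly it was 0.05, 0.11 with the highest transcript and -0.11 with PSMD5, PSMD9 and PSMD10 moved to the regulatory part, so the sign of the smaller sums depended on how the genes were grouped. Of 23 members named by the rules above with a log2 change of at least 0.005 in size, 20 kept their sign. PSMB7, PSMC3IP and PSMD2 did not under every alternative tried for single genes. A pseudocount cannot alter a sign, the status filter removed no member transcript and the rescaling was small, so the count of 20 is a weak check. PSMA3 and PSMC4 were not among the 23. Their highest transcripts gave log2 changes of 0.11 and 0.03, against -0.14 and -0.25 for the sums. The number of members with a PR site was 4 for overlap only, 22 within 50 kb and 4 with a score of at least 100. Depth limits PSMB9 and PSMB10 most.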
